A study of Mus musculus with 17 samples.

Results

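The cytosolic ribosomal protein genes encode the proteins of the small and large subunits of the ribosome outside mitochondria. They were taken here as the protein-coding mouse genes whose symbol is Rpl or Rps followed by a number with an optional a, l, x or y, or is Rplp0, Rplp1, Rplp2 or Rpsa. This rule gave 81 of the 21887 protein-coding genes of the annotation, 50 large subunit (Rpl) and 31 small subunit (Rps) genes. The rule used symbols only and no measured value. Occupancy by RUNX1, a DNA-binding transcription factor of blood development, and by CHD7, a chromodomain helicase that remodels nucleosomes, was read from ChIP-seq peak lists of 416B cells, a mouse myeloid progenitor line.

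All cells carried a tetracycline-regulated system, with the silencer tTS and the activator rtTA behind an Ef1alpha promoter. CM cells also carried a tetracycline-responsive cDNA of Cbfb-Myh11, the fusion made by the inversion of chromosome 16 in acute myeloid leukaemia, joined by F2A to the red fluorescent protein mCherry. Control cells carried that plasmid without the CM part. Both lines were expanded from selected single-cell clones, and the labels do not give the number of clones. Each line was left untreated (-Dox) or given doxycycline at 1 µg/ml for 24 hours (+Dox), so only CM +Dox was induced to make the fusion. The 4 conditions, Control -Dox, Control +Dox, CM -Dox and CM +Dox, had 2 libraries each for either antibody, 16 in all. Nothing in the labels says that replicates came from separate cultures, so spread between them may be technical. The lists held 8140 to 16163 RUNX1 peaks and 16323 to 37698 CHD7 peaks, and the read depth behind them is unknown. The 2 CM +Dox RUNX1 lists were the shortest, with 8140 and 9710 peaks against 12603 to 16163 in the 6 other RUNX1 lists. Peaks of 1 RUNX1 library, Control -Dox replicate 1, are named with a +Dox tag that goes against its label. The library was kept as labelled, since either reading leaves it among the 6 libraries without the fusion. Peak lists hold no expression values, so the identity of the cells was not checked against marker genes.

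Ribosomal protein genes are transcribed at high rates in growing cells, and their products are made in nearly equal amounts because each subunit holds a single copy of most of them. Their mRNAs typically begin at a C followed by a run of pyrimidines, through which their translation is regulated with nutrient supply. Loss of a single copy of several of these genes causes Diamond-Blackfan anaemia, a failure of red cell production, and loss of RPS14 contributes to the anaemia of the 5q- myelodysplastic syndrome. CBFB is the partner protein that helps RUNX1 bind DNA, and the fusion of CBFB to MYH11 interferes with the function of RUNX1 in blood cells.

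A gene was counted as called in a library when at least 1 base of a peak lay within 1 kb of either end of the gene. Both antibodies called ribosomal protein genes at a higher share than protein-coding genes at large in every library. RUNX1 called 51 and 42 of the 81 genes in Control -Dox (replicates 1 and 2), 49 and 37 in Control +Dox, 38 and 46 in CM -Dox, and 30 and 33 in CM +Dox. These are 37.0% to 63.0% of the ribosomal protein genes, against 17.3% to 24.9% of all protein-coding genes. CHD7 called 49 and 59 in the Control -Dox libraries, 49 and 55 in Control +Dox, 48 and 61 in CM -Dox, and 47 and 61 in CM +Dox, 58.0% to 75.3% of the genes against 18.1% to 27.5% of all. For RUNX1 the CM +Dox libraries, which had the shortest lists, were the lowest and did not overlap the others. Over all genes they did overlap, with 18.9% and 19.2% called in CM +Dox and 17.3% to 24.9% in the others. For CHD7 the split ran by replicate number, with 47 to 49 genes in the libraries numbered 1 and 55 to 61 in those numbered 2, and the CM +Dox libraries held the lowest value and, tied with CM -Dox replicate 2, the highest. Ribosomal protein genes are short, 592 to 11774 bp with a median of 3175 bp, against a median of 17169 bp over all genes. Among the 8615 protein-coding genes within that length range, 13.9% to 19.4% were called per RUNX1 library and 13.2% to 20.7% per CHD7 library, less than over genes of all lengths.

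**Figure D1:**
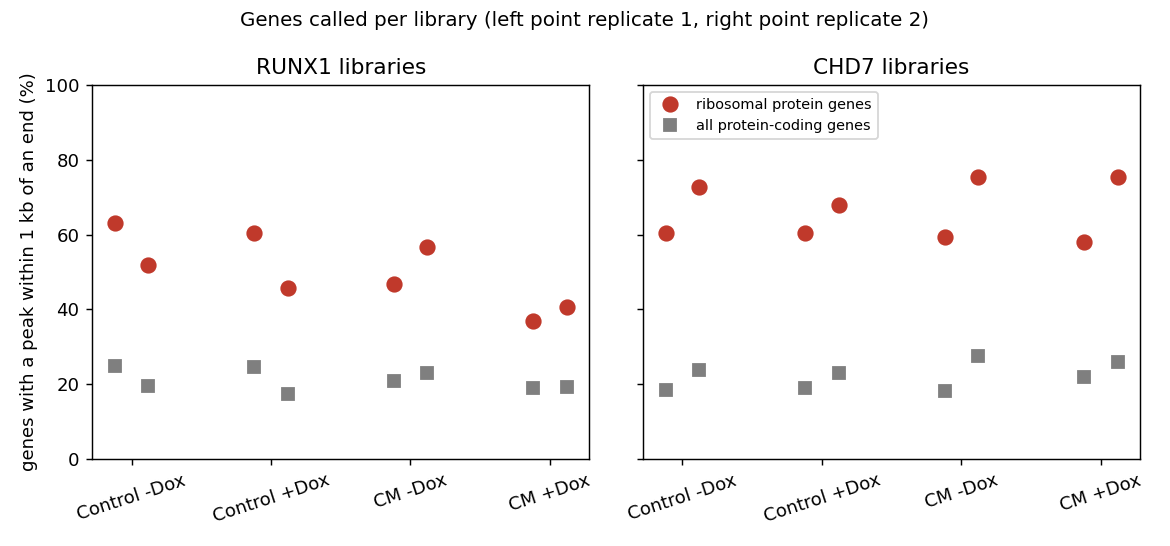
Share of genes (%) with a peak within 1 kb of either end, by condition, for the 8 RUNX1 libraries (left) and the 8 CHD7 libraries (right). Circles are the 81 ribosomal protein genes and squares all 21887 protein-coding genes, 1 point per library. The CM +Dox RUNX1 circles, at 37.0% and 40.7%, lie below the other 6, at 45.7% to 63.0%. The RUNX1 squares overlap, at 18.9% and 19.2% in CM +Dox and 17.3% to 24.9% in the other 6.

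The antibodies differed in how high these peaks stood in their lists. Peaks were given a percentile rank by their deposited score within their own list, with 100 the highest, and each gene took the rank of its best peak. Among the genes a library called, the median RUNX1 rank was 23.8 to 32.9 for ribosomal protein genes and 34.8 to 54.1 for all genes, and it was lower for ribosomal protein genes in each of the 8 libraries. The median CHD7 rank was 74.7 to 90.1 for ribosomal protein genes and 63.9 to 72.2 for all genes, higher in each of the 8 libraries. Within their own lists, RUNX1 peaks at these genes were frequent but mostly of low rank, while CHD7 peaks were frequent and of high rank. The RUNX1 lists were cut at thresholds of 1e-09 or 1e-07 and the CHD7 lists at 0.01. Ranks therefore do not compare the strength of peaks between the antibodies.

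RUNX1 called 15 ribosomal protein genes in all 8 of its libraries, 18.5% of the 81, against 10.3% of all protein-coding genes. Among them were Rpl3, Rpl4, Rpl13a, Rpl27a, Rpl37, Rpl38, Rpl41, Rps3, Rps9, Rps12, Rps14, Rps16, Rps19 and Rps25. In contrast, 19 genes, or 23.5%, had no RUNX1 peak in any library, against 68.9% of all genes. A rank of at least 50 in all 8 libraries was reached by Rpl27a and Rps9 alone, 2.47% of the ribosomal protein genes, which is close to the 2.81% of all genes. CHD7 called 33 genes in all 8 libraries, 40.7% against 9.54% of all genes, and 10 in none, 12.3% against 61.1%. With a rank of at least 95 in all 8 CHD7 libraries, a limit set after the values were seen, there were 18 ribosomal protein genes, 22.2% against 3.0% of all genes. Just inside that limit lay Rpl11 and Rps4x, with lowest ranks of 95.8 and 95.1, and just outside lay Rps7 and Rps9, with 94.9 and 94.4.

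Both antibodies called 11 genes in all 16 libraries, 13.6% against 3.5% of all genes. They included Rpl3, Rpl4, Rpl27a, Rpl37, Rpl38, Rpl41, Rps3, Rps9, Rps12 and Rps14. No peak of either antibody was seen in any library at 9 genes, 11.1% against 56.7% of all genes. These were Rpl17, Rpl22, Rpl23, Rpl37a, Rpl39, Rps2 and 3 forms with restricted expression, Rpl3l of muscle and Rpl10l and Rpl39l of testis. The listed starts of Rps2 lie over 1 kb from its annotated boundary, so a peak at its promoter can fall outside the window and its 0 calls do not show that it was unoccupied. Another 4 genes, Rpl11, Rpl36a, Rps4x and Rps29, were called by CHD7 in all 8 libraries and by RUNX1 in none, 4.94% against 1.38% of all genes. The reverse, RUNX1 in all 8 and CHD7 in none, held for 0 ribosomal protein genes and for 0.859% of all genes.

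**Figure D2:**
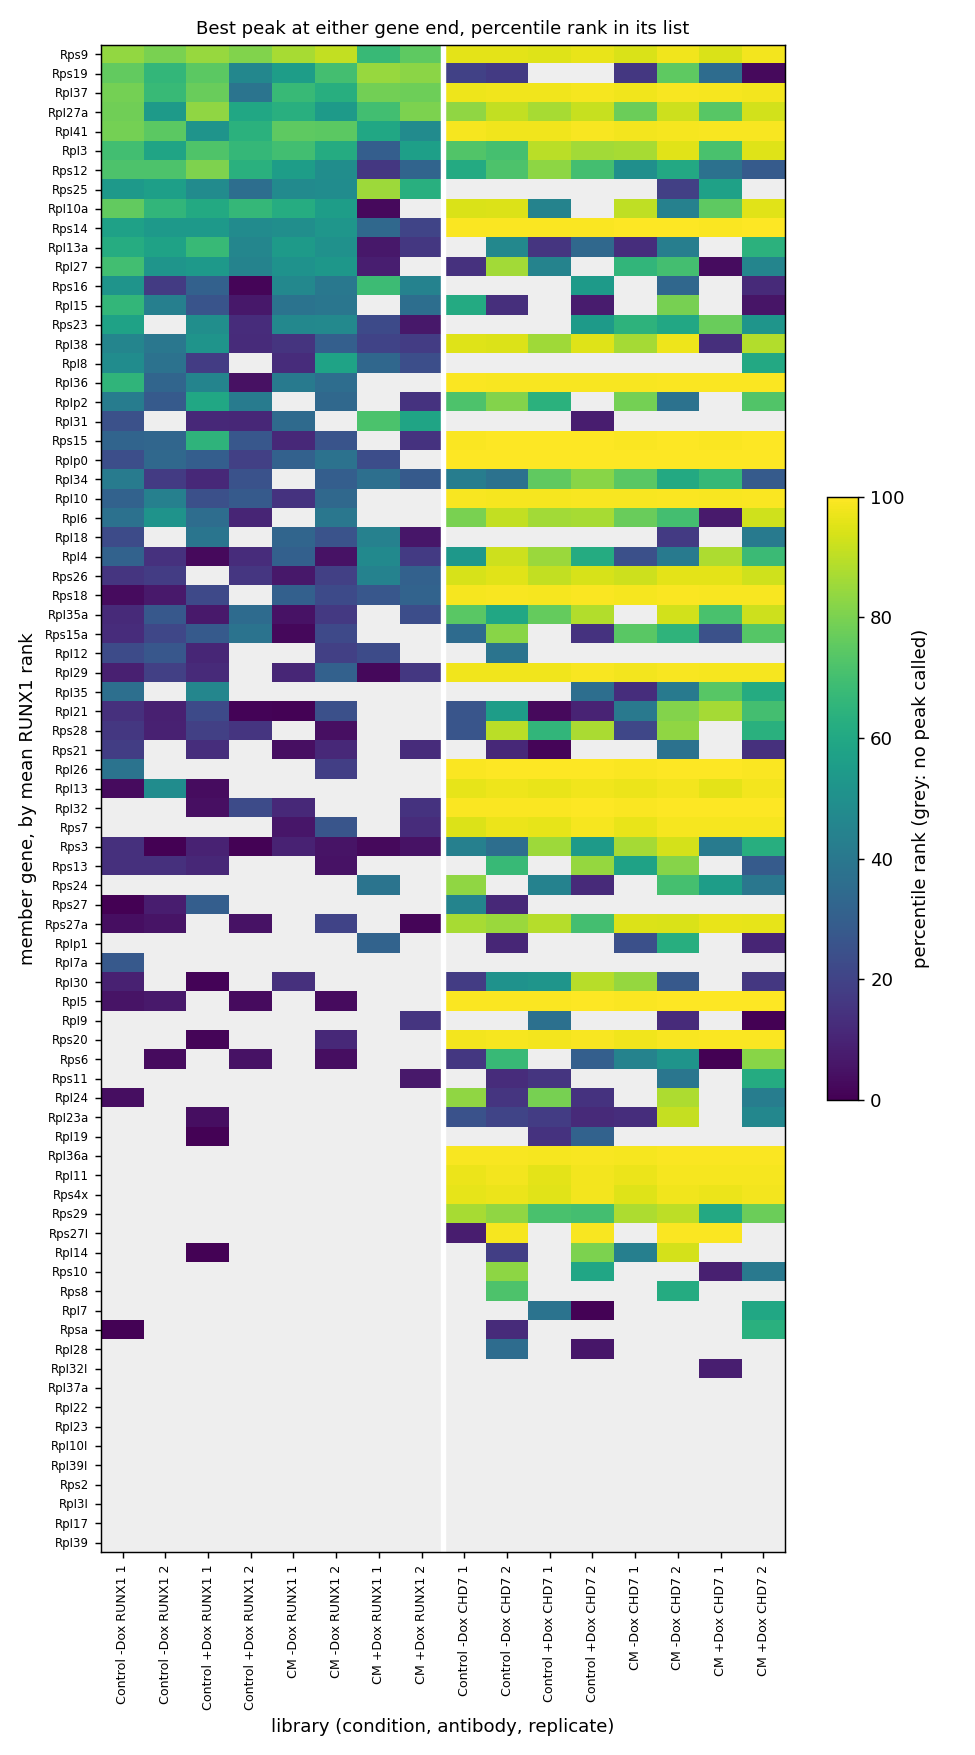
Percentile rank of the best peak within 1 kb of either end of each of 78 of the 81 ribosomal protein genes (rows, ordered by mean RUNX1 rank) in each of the 16 libraries (columns, RUNX1 left and CHD7 right of the white line). Grey means that no peak was called; the CHD7 side holds many rows near 100 across all 8 libraries, such as Rplp0 at 99.7 to 99.9, while only Rps9 and Rpl27a stay above 50 across all 8 RUNX1 libraries.

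Ranks depend on the length of the list, and the CM +Dox RUNX1 lists were the shortest, so the ranks of a gene are set side by side below and are not read as a change between conditions. Among small subunit genes, Rps9, whose protein sits near the mRNA entry side of the subunit, had the highest mean RUNX1 rank, 81.2 (gene at chr7:3703954-3706897). Its ranks were 83.8 and 79.9 in the Control -Dox libraries, 84.5 and 80.9 in Control +Dox, 87.1 and 90.8 in CM -Dox, and 67.2 and 75.0 in CM +Dox. The CHD7 rank of Rps9 was 94.4 to 98.2. The best peaks of the antibodies lay at opposite ends of the gene. The best RUNX1 peak was centred 3129 to 3613 bp after the listed start, past the 3′ end of this 2944 bp gene, in all 8 libraries. The best CHD7 peak was centred 49 to 459 bp before the start. Both antibodies also had lower-ranked peaks at the other end. A CHD7 peak at ranks of 65.9 to 96.9 was centred 3061 to 3459 bp after the start in all 8 libraries. A RUNX1 peak at ranks of 6.6 to 34.2 lay at the start in every library without the fusion.

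Rps19, the gene most often mutated in Diamond-Blackfan anaemia, had the next highest mean RUNX1 rank, 69.5 (gene at chr7:24884592-24889811). Its RUNX1 ranks were 76.1 and 66.1 in the Control -Dox libraries, 74.7 and 46.2 in Control +Dox, 55.7 and 70.2 in CM -Dox, and 84.5 and 82.5 in CM +Dox. The best RUNX1 peak of Rps19 was broad, with a median width of 767 bp against 327 bp over all RUNX1 peaks at ribosomal protein genes, and was centred 269 to 316 bp before the start. CHD7 ranks at Rps19 were low except in CM -Dox replicate 2. They were 19.5 and 16.8 in Control -Dox, 16.3 and 75.3 in CM -Dox and 35.3 and 2.5 in CM +Dox. Neither Control +Dox library had a CHD7 peak there.

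Rps25, whose protein is needed for initiation at several viral internal ribosome entry sites, had a mean RUNX1 rank of 55.0. Its ranks were 54.0, 56.6, 48.4, 36.1, 47.8 and 48.6 in the 6 libraries without the fusion, in the order above, and 85.5 and 63.0 in CM +Dox. CHD7 called Rps25 in 2 of 8 libraries, CM -Dox replicate 2 and CM +Dox replicate 1. Rps12 had RUNX1 ranks of 49.2 to 80.7 without the fusion and 16.2 and 32.1 with it. Rps14, the gene of the 5q- region, had RUNX1 ranks of 48.2 to 57.4 without the fusion and 33.7 and 20.7 with it, and CHD7 ranks of 99.3 to 99.9 in all 8 libraries. Rps16, chosen for mention after its values were seen, had RUNX1 ranks of 1.5 to 51.7 without the fusion and 68.7 and 44.4 with it.

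Among large subunit genes, the highest mean RUNX1 ranks were those of Rpl37 (68.6), Rpl27a (68.0), Rpl41 (65.9) and Rpl3 (60.6). RUNX1 ranks of Rpl37 were 38.5 to 79.1 without the fusion and 78.6 and 78.1 with it. Those of Rpl27a were 54.3 to 83.5 and 69.8 and 80.4. Rpl41, which encodes the smallest ribosomal protein, had ranks of 51.8 to 79.1 without the fusion and 59.4 and 48.4 with it. Its best RUNX1 peak lay within 1 kb of the listed start in 1 of 8 libraries and otherwise near the 3′ end, which is within 1 kb of an end of Zc3h10. Rpl3, whose protein reaches close to the peptidyl transferase centre, had ranks of 58.3 to 72.4 without the fusion and 29.9 and 56.5 with it. Rpl31, also chosen after its values were seen, had RUNX1 ranks of 0 (no peak) to 34.7 without the fusion and 71.6 and 58.3 with it. CHD7 called Rpl31 in 1 library.

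Among the highest mean CHD7 ranks were 99.8 for Rplp0, which anchors the stalk of the large subunit, 99.7 for Rps15 and Rpl26, and 99.6 for Rpl5, Rpl32 and Rps14. The CHD7 ranks of these 6 genes were between 99.3 and 99.9 in every library. Their RUNX1 values ranged widely. Rps14 was called by RUNX1 in all 8 libraries, with a mean rank of 46.3, and Rpl26 in 2, Control -Dox replicate 1 and CM -Dox replicate 2. Rpl5 and Rpl11, whose proteins bind 5S ribosomal RNA and the p53 regulator MDM2, had CHD7 ranks of at least 99.3 and 95.8. RUNX1 called Rpl5 in 4 libraries, at ranks of 3.0 to 6.7, and Rpl11 in none.

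**Figure D3:**
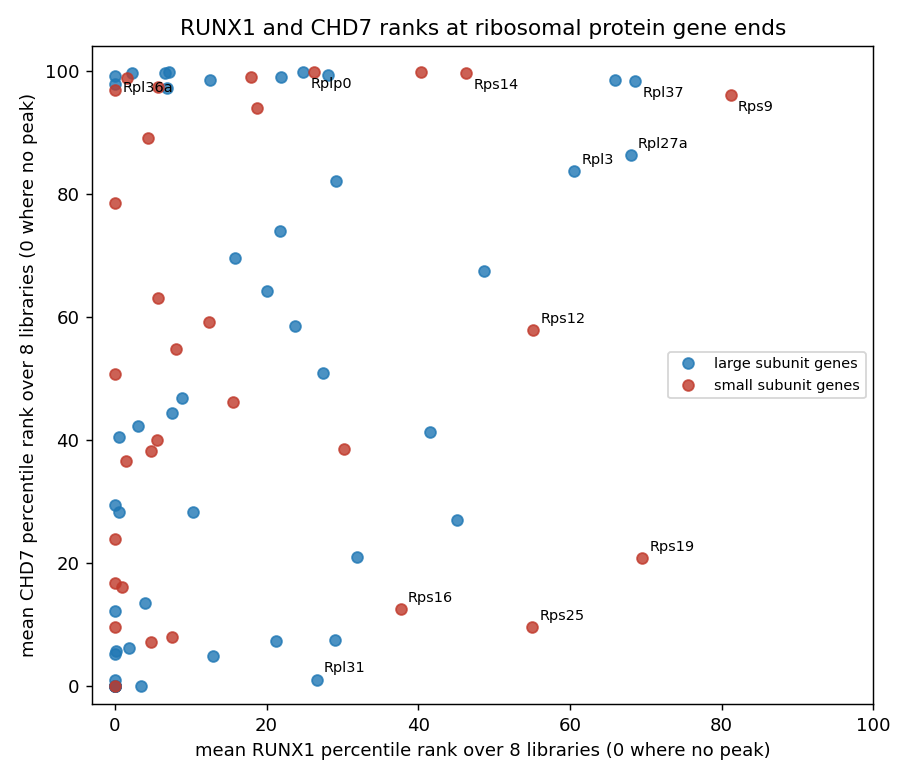
Mean percentile rank over the 8 RUNX1 libraries (horizontal axis) against that over the 8 CHD7 libraries (vertical axis), with 0 entered where a library had no peak, for the 81 ribosomal protein genes coloured by subunit. Genes with CHD7 ranks near 100 span RUNX1 means from 0 (Rpl36a) to 81.2 (Rps9), while Rps19, Rps25, Rps16 and Rpl31 combine RUNX1 peaks with low mean CHD7 ranks.

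The RefSeq promoter table (build GRCm38.p6) held 61 of the 81 genes. The 250 bases before the start of 10 genes are given below, 5′ to 3′ on the gene's strand. RUNX1 called Rpl37, Rpl27a and Rps25 in all 8 libraries. It called Rpl10 in the 6 libraries without the fusion and Rpl6 in 5 of those 6, and neither gene in CM +Dox. Rplp0 and Rpl26 had near-top CHD7 ranks and were called by RUNX1 in 7 and 2 libraries. Rpl11, Rpl36a and Rps4x had CHD7 and no RUNX1. The genes were chosen to set these patterns side by side. The stretches are, on the plus strand, chr15:5116363-5116612 for Rpl37, chr7:109518945-109519194 for Rpl27a, chr9:44407464-44407713 for Rps25, chr5:121204251-121204500 for Rpl6, chrX:74270566-74270815 for Rpl10, chr5:115559217-115559466 for Rplp0, chr11:68901316-68901565 for Rpl26 and chrX:134585404-134585653 for Rpl36a. On the minus strand they are chr4:136053394-136053643 for Rpl11 and chrX:102189392-102189641 for Rps4x. Capitals mark every match, on either strand, to the RUNX core TGTGGT or its variant TGCGGT, the ETS core CCGGAAG, the YY1 core AAGATGGC or the E-box CACGTG.
Rpl37: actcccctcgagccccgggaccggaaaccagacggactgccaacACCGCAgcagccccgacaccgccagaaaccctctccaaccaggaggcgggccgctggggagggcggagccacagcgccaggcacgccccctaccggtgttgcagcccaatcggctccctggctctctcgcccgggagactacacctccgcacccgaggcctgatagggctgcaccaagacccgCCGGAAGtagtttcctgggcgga
Rpl27a: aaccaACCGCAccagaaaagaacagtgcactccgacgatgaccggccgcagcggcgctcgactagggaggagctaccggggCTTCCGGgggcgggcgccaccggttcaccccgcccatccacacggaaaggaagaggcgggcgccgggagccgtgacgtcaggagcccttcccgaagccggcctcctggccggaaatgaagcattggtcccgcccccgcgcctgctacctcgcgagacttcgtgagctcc
Rps25: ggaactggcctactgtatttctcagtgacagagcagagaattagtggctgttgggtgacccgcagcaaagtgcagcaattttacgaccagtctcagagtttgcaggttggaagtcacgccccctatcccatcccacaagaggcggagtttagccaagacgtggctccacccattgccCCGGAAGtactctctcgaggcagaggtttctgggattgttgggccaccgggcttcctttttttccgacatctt
Rpl6: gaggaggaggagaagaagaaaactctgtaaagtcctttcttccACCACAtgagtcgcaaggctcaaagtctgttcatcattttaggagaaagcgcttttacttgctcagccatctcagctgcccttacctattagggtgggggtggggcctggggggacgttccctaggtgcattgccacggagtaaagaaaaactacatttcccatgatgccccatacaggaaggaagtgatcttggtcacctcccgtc
Rpl10: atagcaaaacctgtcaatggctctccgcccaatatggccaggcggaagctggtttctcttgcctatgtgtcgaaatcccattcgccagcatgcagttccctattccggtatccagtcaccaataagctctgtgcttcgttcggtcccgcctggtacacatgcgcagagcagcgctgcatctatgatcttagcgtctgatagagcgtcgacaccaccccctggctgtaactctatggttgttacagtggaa
Rplp0: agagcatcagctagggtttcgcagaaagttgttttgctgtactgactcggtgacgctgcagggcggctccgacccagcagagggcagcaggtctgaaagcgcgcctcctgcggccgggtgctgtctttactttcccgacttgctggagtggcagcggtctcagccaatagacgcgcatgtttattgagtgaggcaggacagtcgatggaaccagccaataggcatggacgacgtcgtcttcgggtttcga
Rpl26: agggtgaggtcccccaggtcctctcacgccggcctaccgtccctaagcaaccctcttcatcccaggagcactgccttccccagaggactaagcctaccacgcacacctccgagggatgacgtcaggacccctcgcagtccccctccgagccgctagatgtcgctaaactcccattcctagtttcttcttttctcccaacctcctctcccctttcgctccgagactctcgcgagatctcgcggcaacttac
Rpl11: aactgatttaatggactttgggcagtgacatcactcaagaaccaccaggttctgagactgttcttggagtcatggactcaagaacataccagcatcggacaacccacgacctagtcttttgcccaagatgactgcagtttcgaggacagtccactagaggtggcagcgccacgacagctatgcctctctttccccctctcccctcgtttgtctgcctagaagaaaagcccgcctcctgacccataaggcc
Rpl36a: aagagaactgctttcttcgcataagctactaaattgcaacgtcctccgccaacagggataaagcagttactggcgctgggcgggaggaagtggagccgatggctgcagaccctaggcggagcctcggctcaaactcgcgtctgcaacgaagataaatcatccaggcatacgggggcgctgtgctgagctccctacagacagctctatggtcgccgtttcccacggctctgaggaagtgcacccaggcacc
Rps4x: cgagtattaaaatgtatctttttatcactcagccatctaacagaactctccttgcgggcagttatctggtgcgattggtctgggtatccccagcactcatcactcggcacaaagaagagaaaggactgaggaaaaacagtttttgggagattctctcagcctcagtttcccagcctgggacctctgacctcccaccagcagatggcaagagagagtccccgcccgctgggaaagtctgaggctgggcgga

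Matches to these letters were few in the 10 stretches. Rpl37 and Rpl27a each hold the RUNX variant on the other strand, beginning 206 and 245 bases before the start, and Rpl6 holds the RUNX core, beginning 207 bases before it. Rpl37, Rpl27a and Rps25 each hold an ETS match, beginning 23, 169 and 73 bases before the start. The other 6 stretches hold none of the letters searched. The best RUNX1 peak covered the RUNX variant and the ETS match of Rpl37 and Rpl27a and the ETS match of Rps25 in all 8 libraries. At Rpl6 it reached the stretch in 5 of 5 libraries and the RUNX core in 0 of 5. At Rpl10 it reached the stretch in 2 of 6 libraries, with a median centre 520 bp after the start. These are descriptions of letters, not of sites, and a peak with a median width of 327 bp (RUNX1) or 415.5 bp (CHD7) reaches beyond the stretch shown.

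Over the whole promoter window, 250 bases before to 50 after the start, the RUNX core was in 5 of the 61 ribosomal protein promoters (Rpl6, Rpl18, Rps2, Rps12, Rps25), 8.2% against 17.2% of all 17492 promoters. The variant TGCGGT was in 4 (Rpl7a, Rpl27a, Rpl37, Rps28), 6.56% against 8.51%. The ETS core was in 25, 41.0% against 12.9% of all promoters and 26.5% of those of genes RUNX1 called in all 8 libraries. Within the ribosomal protein genes it was in 5 of 12 promoters called in all 8 libraries and 6 of 15 called in none. The YY1 core was in 8.2% against 3.57%, and the E-box in 9.84% against 8.91%. The letters CTTT, searched on the gene's strand within 3 bases of the start, were in 19.7% against 3.32%. They resemble the pyrimidine-rich start typical of these mRNAs, but whether transcription begins at them was not tested. The median GC content was 56.7% for ribosomal protein promoters and 56.3% for all.

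Most peaks at ribosomal protein genes lay at the start rather than the other end. Of all 283 RUNX1 peaks within 1 kb of an end of genes with a listed start, counted over the 8 libraries and with more than 1 peak for some genes, 71.4% were centred within 250 bp of it and 82.3% within 1 kb. Of the 420 such CHD7 peaks, 46.2% and 78.6% were. These shares were not computed over all genes, so the placement is not read as particular to ribosomal protein genes. The median centre was 50 bp before the start for RUNX1 and 38 bp before it for CHD7. Within 1 kb of the start, 84.1% of RUNX1 and 73.0% of CHD7 peaks were centred before it. The median peak width at ribosomal protein genes and at all gene ends was 327 and 331 bp for RUNX1 and 415.5 and 400 bp for CHD7. Of the 12 genes with a listed start that RUNX1 called in all 8 libraries, 8 had the best peak within 1 kb of the start every time, Rps9 never, and Rpl4, Rpl38 and Rpl41 in some libraries. For CHD7 the start held the best peak every time in 19 of 22 such genes. Rpl41 was the exception throughout, with its best CHD7 peaks centred 1279 to 1468 bp after its start. A lower-ranked CHD7 peak, at 71.9 to 95.9, also lay within 1 kb of that start in all 8 libraries. Rps27l, a p53-responsive duplicate of Rps27, is an edge case of the rule, because its listed starts lie over 1 kb from the annotated gene boundary, as do those of Rpl18, Rpl19 and Rps2. CHD7 ranks at Rps27l were 8.0, 98.8, 99.2, 99.4 and 99.5 in 5 libraries, with no peak counted in the other 3.

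**Figure D4:**
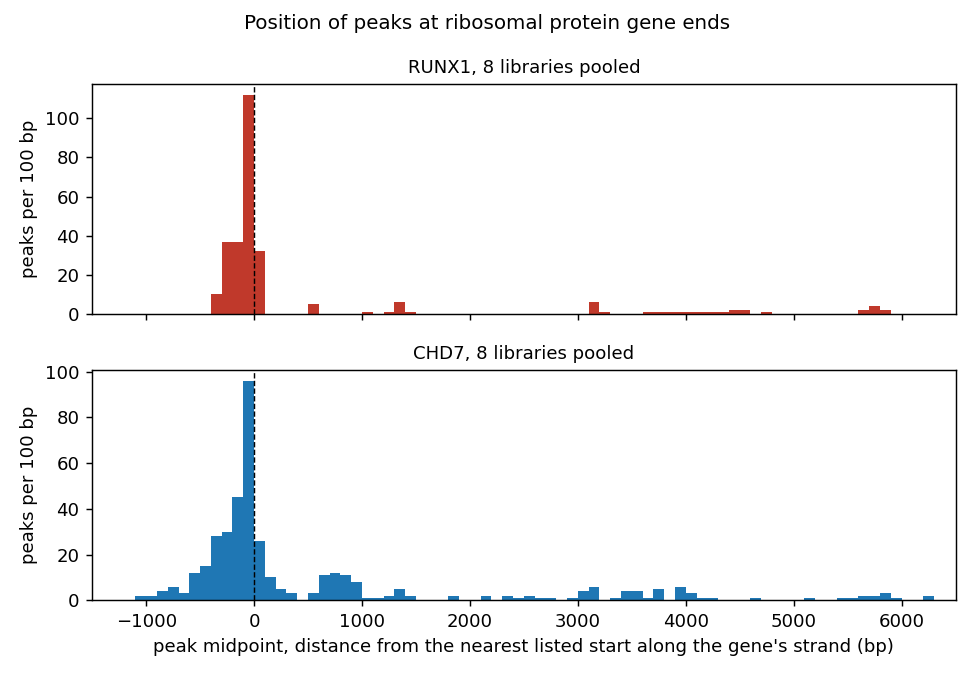
Distance in bp from the nearest listed start to the centre of each peak within 1 kb of a gene end, along the gene's strand, for RUNX1 (top, 283 peaks) and CHD7 (bottom, 420 peaks), pooled over 8 libraries, in bins of 100 bp; 13 and 15 peaks outside the plotted range are not drawn. Both distributions are highest in the 100 bp before the start, and the small RUNX1 group at about 3100 bp is the 3′ peak of Rps9.

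RUNX1 and CHD7 peaks were often called at the same ribosomal protein genes. In libraries of the same condition and number, 71.4% to 95.7% of the ribosomal protein genes RUNX1 called were also called by CHD7. This compares with 50.7% to 70.2% of all genes that RUNX1 called, and the share was higher for ribosomal protein genes in all 8 pairings. With or without RUNX1, CHD7 called 58.0% to 75.3% of ribosomal protein genes and 18.1% to 27.5% of all genes. The higher share therefore does not by itself show that the antibodies were more closely paired at ribosomal protein genes. Of the genes called by both, 81.2% to 94.9% had a RUNX1 peak that overlapped a CHD7 peak, against 69.5% to 86.8% of all such genes. CHD7 and RUNX1 libraries that share a number are not known to share a culture. An end of another protein-coding gene lay within 1 kb of 29 of the 81 genes, to which the peak may equally belong. Among the 29 were Rpl10 (near Dnase1l1), Rpl31 (Tbc1d8), Rpl36 (Micos13 and Lonp1), Rpl37 (Card6) and Rps25 (Trappc4 and Ccdc84). The 52 genes without such a neighbour included 11 of the 15 that RUNX1 called in all 8 libraries and 23 of the 33 that CHD7 did.

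The comparison of CM +Dox with the other 6 libraries asks where occupancy differed once the fusion was made. A gene was counted as lost when all 6 libraries without the fusion called it and neither CM +Dox library did, and as gained when both CM +Dox libraries called it and none of the 6 did. For RUNX1, 4 of the 26 ribosomal protein genes called in all 6 were lost, 15.4% against 12.3% of all genes, a share near that of genes at large. They were Rpl10, which joins the large subunit in a late assembly step, Rpl21, Rpl36 and Rps15a. The best RUNX1 peak of Rps15a lay within 1 kb of its listed start in 2 of the 6 libraries without the fusion. The median centre of that best peak was 11242 bp after the start, near the 3′ end of the gene. A further 7 were called in only 1 CM +Dox library, 26.9% against 11.5%, among them Rpl10a, Rpl15, Rpl27, Rpl35a, Rplp0 and Rps15. None of the 23 genes without RUNX1 in all 6 was gained, against 0.437% of all genes. The number lost rests on both CM +Dox libraries, and it was 8 without CM +Dox replicate 1 and 7 without CM +Dox replicate 2, while 2 were gained in either case.

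The 4 lost genes had RUNX1 peaks of low or middling rank in the 6 libraries without the fusion. Rpl10 and Rpl36 have an end of another gene within 1 kb, to which the peak may equally belong. Rpl10 had ranks of 31.4 and 43.6 in the Control -Dox libraries, 24.3 and 28.3 in Control +Dox, and 14.5 and 33.6 in CM -Dox. Rpl36 had 65.6 and 32.5, 45.3 and 4.4, and 40.7 and 35.9 in the same order, and Rps15a 12.6 and 21.2, 28.4 and 38.1, and 2.2 and 22.1. Rpl21 was lowest, with 13.9 and 8.6, 22.3 and 0.8, and 0.7 and 24.4. The mean rank over the 6 libraries had a median of 25.0 over the 4 lost genes, 32.5 over the 7 kept in 1 CM +Dox library and 56.4 over the 15 kept in both, against 38.1, 40.1 and 57.5 over all genes in those classes. Among the 7, Rpl10a had ranks of 55.6 to 76.1 in the 6 libraries and 2.5 and no peak in CM +Dox, and Rpl27 had 44.8 to 69.7 and then 8.5 and no peak. CHD7 called all 4 lost genes in both CM +Dox libraries. It called Rpl10 and Rpl36 in all 8 libraries, at ranks of at least 98.7, and Rpl21 at 86.4 and 70.2 and Rps15a at 24.7 and 73.7 in CM +Dox.

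No single gene passed the adjusted test. The two-sided exact permutation test per gene, over the 28 ways to choose 2 of 8 libraries, cannot give a p below 0.0357. A lost or gained gene has that p by definition, so the 4 lost ribosomal protein genes have it and the test adds nothing to their count. After Benjamini-Hochberg adjustment over the 6810 genes RUNX1 called in any library the lowest value was 0.564. At an unadjusted p below 0.05 there were 431 of those 6810 genes, which are the lost and gained genes, and 99 of 8505 for CHD7, none of these 99 ribosomal protein genes.

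The RUNX1 difference depended on the length of the lists. As deposited, CM +Dox libraries called a mean of 31.5 ± 2.12 (SD, n = 2) ribosomal protein genes and the other 6 a mean of 43.8 ± 5.78 (SD, n = 6), a ratio of 0.719 against 0.876 for all genes. Within the libraries numbered 1 the ratios were 0.652 and 0.803, and within those numbered 2 they were 0.792 and 0.962. When every RUNX1 list was limited to its 8140 highest-scoring peaks, the order turned over. RUNX1 then called 20 and 17 ribosomal protein genes in the Control -Dox libraries, 19 and 14 in Control +Dox, 16 and 11 in CM -Dox, and 30 and 22 in CM +Dox, so that CM +Dox was the highest. The ratio was 1.61 for ribosomal protein genes and 1.62 for all genes. Lost genes then numbered 0 of 10 against 8.09% of all genes. Gained genes numbered 6 of 55, 10.9% against 3.19%: Rpl4, Rpl29, Rpl31, Rpl34, Rps18 and Rps26. The genes called in all 8 lists numbered 8, 9.88% against 4.64%: Rpl3, Rpl13a, Rpl27a, Rpl37, Rpl41, Rps9, Rps14 and Rps19. List length and condition moved together and read depth is unknown, so an effect of the fusion on RUNX1 at these genes and an effect of list length cannot be told apart.

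**Figure D5:**
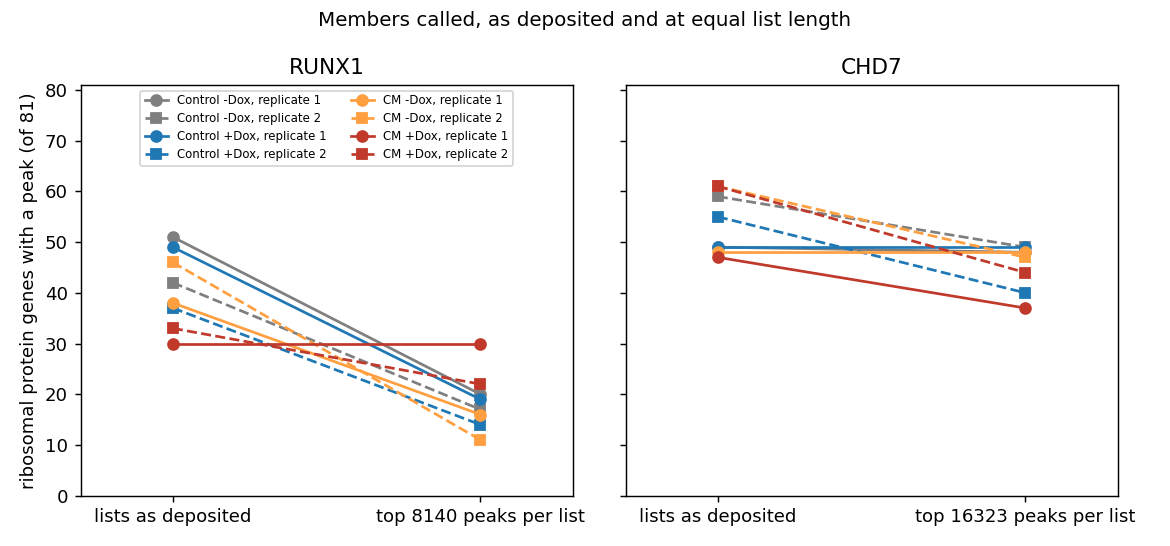
Number of the 81 ribosomal protein genes with a peak, per library, with lists as deposited (left of each panel) and with every list limited to the length of the shortest (right), for RUNX1 (8140 peaks) and CHD7 (16323 peaks). Each line is 1 library; the CM +Dox RUNX1 lines start lowest, at 30 and 33, and end highest, at 30 and 22.

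For CHD7 the CM +Dox libraries lay within the spread of the others or 1 gene below it. They called a mean of 54.0 ± 9.9 (SD, n = 2) and the other 6 a mean of 53.5 ± 5.65 (SD, n = 6), a ratio of 1.01 against 1.1 for all genes. The sign of this difference turned when single libraries were left out, and at equal list length the ratios were 0.865 and 0.906. None of the 36 genes called in all 6 was lost, against 0.961% of all genes, and 3 (Rpl23a, Rpl30 and Rps28) were called in only 1 CM +Dox library, 8.33% against 7.86%. None of 12 was gained, against 0.549%. All 3 were absent from CM +Dox replicate 1 and present in replicate 2, so that without replicate 2 the number lost would be 3. At equal list length 1 of 31 genes, Rps12, was lost, 3.23% against 3.38% of all genes, 0 of 16 were gained against 0.218%, and 25 were called in all 8 lists, 30.9% against 6.36%.

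By condition, with both replicates required, RUNX1 called 41 ribosomal protein genes in Control -Dox (50.6% against 18.1% of all genes), 33 in Control +Dox (40.7% against 16.1%), 35 in CM -Dox (43.2% against 19.4%) and 23 in CM +Dox (28.4% against 16.2%). CHD7 called 48 in Control -Dox (59.3% against 15.6%), 43 in Control +Dox (53.1% against 15.0%), 48 in CM -Dox (59.3% against 16.6%) and 44 in CM +Dox (54.3% against 17.8%). The pairs of conditions below compare 2 libraries with 2 and share libraries with each other, and a gene counts only where both replicates of 1 condition call it and both of the other do not.

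Doxycycline without the fusion is the contrast of Control +Dox with Control -Dox. The RUNX1 counts of this contrast, and of CM -Dox against Control -Dox, rest on the label of Control -Dox replicate 1 and would not hold if its +Dox tag were right. For RUNX1, 0 of 41 genes were called in Control -Dox alone (2.55% of all genes). In Control +Dox alone it called 1 of 29, Rpl32 (3.45% against 0.192%). The best Rpl32 peaks of the 2 Control +Dox replicates, at ranks of 4.0 and 22.8, lay at opposite ends of the gene. For CHD7, 2 of 48, Rps19 and Rps27, were called in Control -Dox alone (4.17% against 5.18%), and 2 of 21, Rpl7 and Rpl19, in Control +Dox alone (9.52% against 0.954%). The construct without doxycycline is the contrast of CM -Dox with Control -Dox. RUNX1 called 2 of 41, Rpl13 and Rps27, in Control -Dox alone (4.88% against 4.33%) and 1 of 29, Rps7, in CM -Dox alone (3.45% against 0.775%). CHD7 called 1 of 48, Rps27, in Control -Dox alone (2.08% against 5.09%) and 2 of 21, Rpl35 and Rps23, in CM -Dox alone (9.52% against 1.52%). The highest CHD7 rank of Rpl19 was 31.4 and that of Rps27 was 45.1.

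Within the CM line, RUNX1 called 5 of 35 genes in CM -Dox and not in CM +Dox, among them Rpl10, Rpl21, Rpl36 and Rps15a (14.3% against 15.0% of all genes), and 0 of 32 in CM +Dox alone (1.23%). Against Control +Dox, which shares the doxycycline, 6 of 33 were called in the control alone, Rpl6, Rpl10, Rpl21, Rpl36, Rps15a and Rps28 (18.2% against 17.6%), and 0 of 28 in CM +Dox alone (1.64%). These shares were close to those of all genes. CHD7 called 1 of 48, Rpl14, in CM -Dox alone (2.08% against 4.17%) and 1 of 20, Rps10, in CM +Dox alone (5.0% against 1.79%). Against Control +Dox it called 1 of 43, Rpl19, in the control alone (2.33% against 6.32%) and 1 of 20, Rps19, in CM +Dox alone (5.0% against 2.88%).

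By subunit, RUNX1 called 7 of 50 large and 8 of 31 small subunit genes in all 8 libraries, 14.0% and 25.8%, and CHD7 20 and 13, 40.0% and 41.9%. Whether the subunits differ was not tested. The 3 stalk genes differed among themselves. Rplp0 was called by CHD7 in all 8 libraries and by RUNX1 in 7, Rplp2 in 6 of each with mean ranks of 27.5 for RUNX1 and 50.9 for CHD7, and Rplp1 by RUNX1 in 1 and by CHD7 in 4. Of 19 genes linked to Diamond-Blackfan anaemia, RUNX1 called 2 in all 8 libraries, Rps19 among them, which is 10.5% against 10.3% of all genes. It lost 1 (Rps15a) of the 6 called in all 6 libraries without the fusion, against 12.3% of all genes. CHD7 called 7 in all 8, 36.8% against 9.54%.

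For related genes that the symbol rule leaves out, the shares called in all 8 libraries stand against 10.3% of all genes for RUNX1 and 9.54% for CHD7. Among 7 further ribosomal proteins or partners, RUNX1 called 3 in all 8 libraries (42.9%) and CHD7 2 (28.6%), and the highest mean RUNX1 ranks were those of Fau (67.1), Rpl36al (57.9) and Rps3a1 (36.8). Fau, which encodes a ubiquitin-like protein fused to Rps30, shares these values with Mrpl49 (67.1), beside which it lies. Among 20 genes of ribosome assembly and ribosomal RNA synthesis the numbers were 4 (20.0%) and 7 (35.0%), with Nhp2 (58.6), Polr1a (57.0) and Ncl (50.3) the highest for RUNX1. Among 18 translation factors and other mRNAs with a pyrimidine-rich start they were 8 (44.4%) and 7 (38.9%), with Eif4a1 (85.1), Pabpc1 (69.5) and Eef2 (62.8) the highest. RUNX1 called 14 and 13 of those 18 genes in CM +Dox and 8 to 13 in the other libraries. Over all genes it called 18.9% and 19.2% in CM +Dox and 17.3% to 24.9% in the others. Of the 18 genes 1 was gained, against 0.437% of all genes. Whether this list differs from genes at large was not tested. Of 78 mitochondrial ribosomal protein genes, RUNX1 called 10 in all 8 libraries (12.8%) and CHD7 31 (39.7%), with Mrpl48 (81.2), Mrpl49 (67.1) and Mrpl51 (65.9) the highest for RUNX1. RUNX1 lost 5 of 18 mitochondrial genes called in all 6 libraries, against 12.3% of all genes, and gained 0, against 0.437%. The median CHD7 rank of the mitochondrial genes called was 86.8 to 94.5, which overlaps the 74.7 to 90.1 of the cytosolic genes.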

How the data were processed

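RUNX1 and CHD7 ChIP-seq peak lists of 16 libraries were used, 1 list per library, so peaks were called per sample. The labels name 17 samples, and the values of the IgG sample were not analysed here. Per the submitters' processing notes, Bowtie2 2.0.6, MACS2 2.0.10 and the mm10 build were used; the control library, read filters and depth are not stated in labels or headers. The score the authors deposited is the −log10 of the peak's p-value. Thresholds in the deposited peak names are 1e-09 in 5 RUNX1 lists, 1e-07 in 3 and 0.01 in all 8 CHD7 lists. Scores served to rank peaks inside each list, and were set against a limit shared by lists only in the alternatives of a common threshold and of a median score.

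Gene ends came from the RefSeq gene table and starts from the RefSeq promoter table, both of GRCm38.p6 (mm10), for chromosomes 1 to 19, X and Y. Strand was known for 61 of the 81 genes, so either gene end was used, and exons were not used here. Groups were taken from the labels. Counts over the ribosomal protein genes carry no p-value, because these genes and all gene lists were chosen with earlier results of these data known. The per-gene test was a two-sided exact permutation test, tested on simulated data, with Benjamini-Hochberg adjustment. Alternatives were a common RUNX1 threshold of 1e-09, equal list length, a median-score limit, windows of 0.5 and 5 kb, the start alone, peak centres, and leaving out each library. Genes were named by rule: the 8 highest mean RUNX1 and 5 highest mean CHD7 ranks (0 where no peak), every lost or gained gene, those kept in 1 CM +Dox library, genes with no peak or a single antibody, Rps19, Rps14, Rpl5 and Rpl11, the first 3 of each related list, and any count of 5 or fewer. Some genes this rule names are counted in the totals but not reported here by name. Python 3.11.15 with numpy 2.4.6, pandas 2.3.3 and matplotlib 3.10.9 was used.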

Additional observations from a re-analysis of the deposited data

How the results depend on the processing

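For RUNX1, CM +Dox minus the mean of the other 6 libraries was -12.33 ribosomal protein genes as reported, 9.83 at equal list length and -5.33 with peaks at or above the antibody's median score, and -13.83 to -10.83 when single libraries were left out. The number lost, 4, was 0 at equal list length, and 2 each at the median score, with the start alone and, in an alternative added after seeing the data, over genes with a listed start; leaving out single libraries gave 4 to 8. The number gained, 0, was 6 at equal list length, 1 at the median score and 0 to 2 with single libraries left out. The number called in all 8 libraries, 15, was 8 at equal list length, 1 at the median score and 23 in the 5 kb window. For CHD7 the difference of 0.5 was -6.33 at equal list length, -0.17 by peak centres and -6.5 to 7.5 with single libraries left out, being -0.4 without Control -Dox or Control +Dox replicate 1, -0.6 without CM -Dox replicate 1, -6.5 without CM +Dox replicate 2 and 7.5 without CM +Dox replicate 1. CHD7 lost 1 at equal list length and 0 to 3 with libraries left out, and gained 1 at the median score and 0 to 1 with libraries left out. CHD7 calls in all 8 libraries stayed within 1.5 times of 33 under the alternatives run. Equal list length and the median score test fewer peaks by construction. The alternative over genes with a listed start leaves out the lost genes Rpl21 and Rpl36, which have no listed start. The cause of the other shifts was not tested. A common RUNX1 threshold moved no count over the ribosomal protein genes by more than 1.5 times.

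With replicate number as a block, 16 choices allow no p below 0.0625, so 0 genes passed for either antibody, as without it. Same-numbered libraries correlated in their deviations at -0.0 to 0.25 for RUNX1 and 0.0 to 0.05 for CHD7, so the numbers are not read as pairs. The CHD7 counts still split by number, at 47 to 49 ribosomal protein genes in libraries numbered 1 and 55 to 61 in those numbered 2. The cause of that split was not tested. Unknown read depth, thresholds that differ between RUNX1 lists and 2 libraries per condition limit every difference given here.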
